A study of Drosophila melanogaster with 2 samples.

Results

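The proteasome subunit genes of Drosophila were examined for accessible chromatin in ML-DmD17-c3 (D17), a line that was established from the haltere imaginal discs of larvae. Members were chosen by symbol. They were the 48 protein-coding genes of the Release 6 annotation, out of 13946, whose names begin with Prosalpha, Prosbeta, Rpn or Rpt followed by a digit. Of these, 32 are canonical subunit genes, and 16 carry a suffix of T or R, with or without a digit, which marks a paralogue. The assay was ATAC-seq: a transposase inserts sequencing adapters where DNA is not covered by nucleosomes, so that read density marks accessible sites. There was 1 group, D17 cells with no treatment or genotype change named, with 2 libraries, and the labels do not say whether these came from separate cultures. The authors' list of 26571 accessible regions names no replicate, so the values below have no SD and no test between groups was possible. A gene was counted as having a region when one overlapped the gene or the 500 bp beyond either end by at least 1 bp. The gene table gives no strand, so a start could not be told from a stop, and exons and introns were not used here.

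The proteasome degrades proteins marked with ubiquitin. Its core particle is a barrel of stacked rings, in which alpha subunits gate the entrance and beta subunits line the chamber. The beta1, beta2 and beta5 subunits carry the proteolytic sites. A regulatory particle sits on the barrel: in its base the Rpt ATPases unfold the substrate, and in its lid Rpn11 removes ubiquitin. Every cell needs the canonical subunits, whereas the Drosophila paralogues with suffix T are known from testis, where Prosalpha6T serves sperm formation.

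Nearly all canonical genes had a region, and the paralogues had one about as often as other genes of their length. In the window of the gene and 500 bp beyond, 31 of 32 canonical genes (96.9%) and 12 of 16 paralogues (75%) had a region, against 78.5% of all protein-coding genes. Longer genes offer a wider target. Among genes within the length range of the canonical genes (914 to 4500 bp) the share was 81.3%. Within the range of the paralogues (881 to 1778 bp) it was 73.5%, and among all genes no longer than the longest paralogue it was 62.2%. The paralogues' share is therefore close to the background for their length, and that of the canonical genes lies above theirs. Genes are not replicates, and these shares were not tested. In this window the median of the highest fold per gene was 2.05 for the 31 canonical genes and 2.07 for the 12 paralogues. It was 2.17 for all 10947 protein-coding genes with a region. For the 6463 of these in the members' length range (881 to 4500 bp) it was 2.05. Fold is the authors' value for each region, the pileup at its summit over the local background. The lowest background in the list was 44.4, a value that several of the members' regions share. Whether it is a set lower limit was not tested. The median pileup was 118 at canonical genes and 101.5 at paralogues, and the median background 61.2 and 47.2. The fold medians depended on the setting. With T, R, R1 and R2 alone as paralogue suffixes they were 2.05 for canonical genes and 2.34 for paralogues. With only regions that touch no other gene's window they were 1.76 and 2.63.

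**Figure D1:**
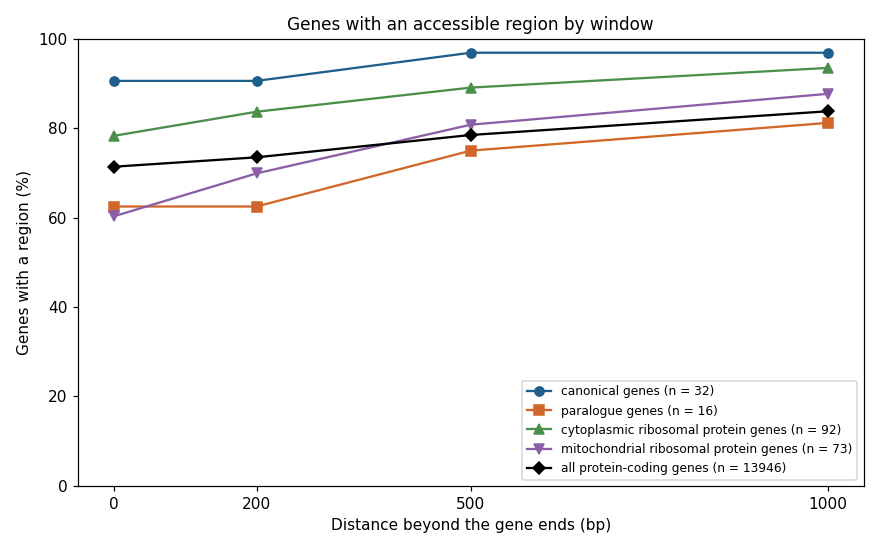
Share of genes with an accessible region (y axis, %) when the window reaches 0, 200, 500 or 1000 bp beyond the gene ends (x axis), for canonical proteasome genes, paralogues, both kinds of ribosomal protein gene and all protein-coding genes. Canonical genes lie highest at each window (90.6% to 96.9%), and paralogues lie below all protein-coding genes at each (62.5% to 81.2%). The groups are not matched for gene length.

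Canonical genes lay above all protein-coding genes and paralogues below them over the gene alone too, where 29 of 32 canonical genes and 10 of 16 paralogues had a region against 71.4% of all protein-coding genes. Just inside the limit of 500 bp lay the only region of Prosalpha1, 471 bp from the gene, and the highest-fold region of Rpt5, at 499 bp. The nearest regions of Rpt6R, at 753 bp, and Rpt4, at 1069 bp, fell outside. With the summit required inside the gene the counts were 28 of 32 and 10 of 16 (62.5%), against 68.0%. In the members' length range the share was 69.4%, and among genes no longer than the longest paralogue 44.2%. The latter set runs down to 168 bp, shorter than any paralogue. No share was taken for the paralogues' own length range with this setting. With 1000 bp beyond the ends the counts were 31 and 13, against 83.8%, and with an overlap of at least 100 bp they were 30 and 12, against 76.9%. In the 50% of regions with the higher score they were 24 and 8, against 57.7%. Apart from the summit setting, the shares so far in this paragraph are for genes of all lengths. Cytoplasmic ribosomal protein genes, which like proteasome genes are needed in every cell, had a region in 82 of 92 (89.1%) in the window of 500 bp, and mitochondrial ribosomal protein genes in 59 of 73 (80.8%). Strong regions, the 10% of the list with the highest fold (at least 2.999), reached 5 of the 32 canonical genes and 2 of the 16 paralogues, against 15.3% of all protein-coding genes. In the length range of the canonical genes the share was 8.64%, and in that of the paralogues 5.82%. The members' counts are thus near the share of all genes and above that of genes of their length, but they rest on 7 genes. In 3 of the 7, Prosalpha1, Rpn9 and Prosbeta2R2, the strong region lay outside the gene and over a neighbour.

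**Figure D2:**
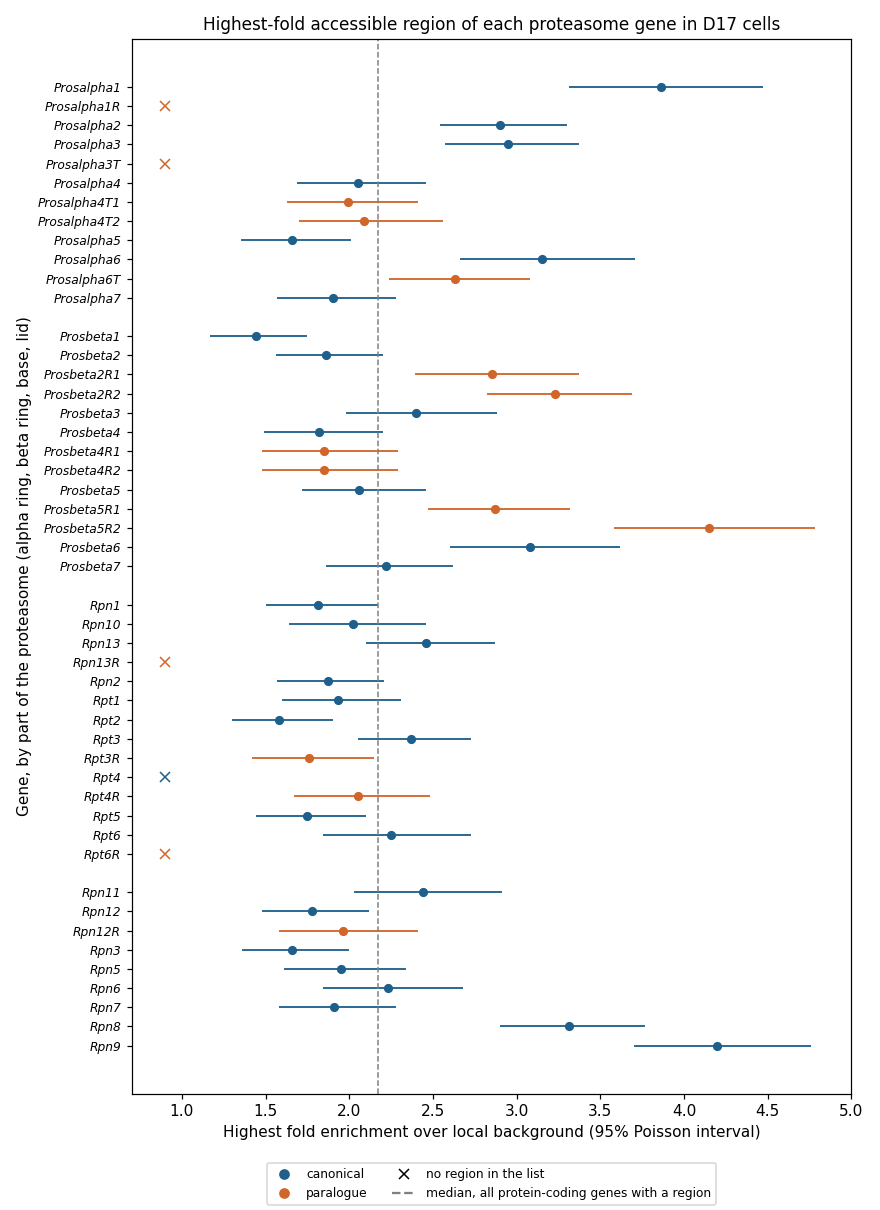
Highest fold enrichment of any region in each gene's window (x axis), with the 95% Poisson interval of the summit pileup, for the 48 genes grouped by their place in the proteasome (y axis); crosses mark the 5 genes with no region in the list. The values run from 1.44 at Prosbeta1 to 4.20 at Rpn9, and canonical genes and paralogues overlap over most of that range. The dashed line is the median of all protein-coding genes with a region (2.17), which are not matched for length.

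All 7 canonical alpha ring genes had a region, with highest folds from 1.66 to 3.86. The highest belonged to Prosalpha1, at 2R 7825719 to 7826831. Its fold was 3.86 (95% Poisson interval 3.31 to 4.47), from a pileup of 174 over a background of 44.4. That region covers part of the neighbouring gene phr and lies 471 bp from Prosalpha1 (2R 7827303 to 7828678), which had none over its own body. Much the same holds for Prosalpha3 and Prosalpha2. The fold of 2.95 (2.57 to 3.37) in the window of Prosalpha3 came from a region with its summit 1057 bp past the gene and over CG10543, while its own best summit had 2.28. The fold of 2.90 at Prosalpha2 belonged to a region that reached into the gene with its summit 569 bp outside it, towards CG5245. Prosalpha6 differed, with its summit 464 bp inside the gene and a fold of 3.15 (2.66 to 3.71) at 2L 10221291 to 10222340. Summits inside Prosalpha4 (2.05, interval 1.69 to 2.46), Prosalpha7 (1.87) and Prosalpha5 (1.66, interval 1.35 to 2.01) were lower.

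All 7 canonical beta ring genes also had a region, and 6 of the 7 highest-fold summits lay inside the gene. Among the catalytic subunit genes, Prosbeta1, whose product cuts after acidic residues, had a highest fold of 1.44 (1.17 to 1.75) at 2R 16014023 to 16014468. The pileup there was 101 over a background of 69.9, and 97.9% of all regions in the list had a higher fold. This was the lowest of the highest folds in the members' windows. By summits inside the gene Rpn13 was lower, at 1.37. Prosbeta2, with trypsin-like activity, had 1.86 (1.56 to 2.2) and Prosbeta5, with chymotrypsin-like activity, 2.06 (1.72 to 2.46). The structural subunit genes Prosbeta6 (3.08, interval 2.6 to 3.62), Prosbeta3 (2.40) and Prosbeta7 (2.22) had higher values, but the interval of Prosbeta6 alone lies above that of Prosbeta5. The region of Prosbeta6, 3L 16608634 to 16610443, covered the whole gene, the only member covered in full, and part of CG4098. Prosbeta4 had no region over its body, and its 1.82 (1.49 to 2.2) came from a region outside the gene.

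Among the 10 canonical genes of the base, 9 had a region and none a strong one, with highest folds from 1.58 to 2.46. The ATPase genes Rpt6 (2.25, interval 1.84 to 2.73), Rpt1 (1.93), Rpt3 (1.89), Rpt2 (1.58, interval 1.3 to 1.9) and Rpt5 (1.58) each had a summit inside the gene. Rpt3 and Rpt5 had higher values, 2.37 (2.05 to 2.73) and 1.75 (1.44 to 2.1), at regions that lay over CG11122 and RanBP3. Rpt1 lies whole within the annotated span of CG17985, and CG1801 overlaps 1471 bp of Rpt6, so these regions cannot be given to a single gene. The sixth ATPase gene, Rpt4 (X 6289470 to 6291245), was the only canonical gene without a region. The nearest, 1069 bp away over wuho and Top3beta, had a fold of 3.89 (3.50 to 4.31), and its background of 93.1 was above that of any region in the members' windows, where it ran from 44.4 to 79.9. What a region missing from the list means for accessibility cannot be told, since the list holds only values past its threshold. The scaffold genes Rpn1 and Rpn2 had 1.81 and 1.87, and the ubiquitin receptor gene Rpn10 had 2.02. For the receptor gene Rpn13 the highest fold, 2.46 (2.1 to 2.87), was over AGO1, and the summit inside the gene had 1.37 (1.11 to 1.67).

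Each of the 8 canonical lid genes had a region with its summit inside the gene. Rpn8, the partner of the deubiquitinase Rpn11, had 3.31 (2.90 to 3.77) at 2R 24402065 to 24402767, with its summit in the stretch where its annotated span overlaps that of the kinase gene Slik. Rpn11 had 2.44 (2.03 to 2.91), Rpn6 2.23, Rpn9 2.01 and Rpn5 1.95. Rpn7 (1.91), Rpn12 (1.78) and Rpn3 (1.66, interval 1.36 to 2.0) followed. The highest fold of all members, 4.20 (3.70 to 4.76), was in the window of Rpn9 at 3R 23729804 to 23731210, with a pileup of 247 over 58.0. It lay over CG10365, whose span overlaps the lower end of Rpn9 by 125 bp, and 164 bp from Rpn9 itself. In order of highest fold, no member's interval was separate from that of the next one below it.

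**Figure D3:**
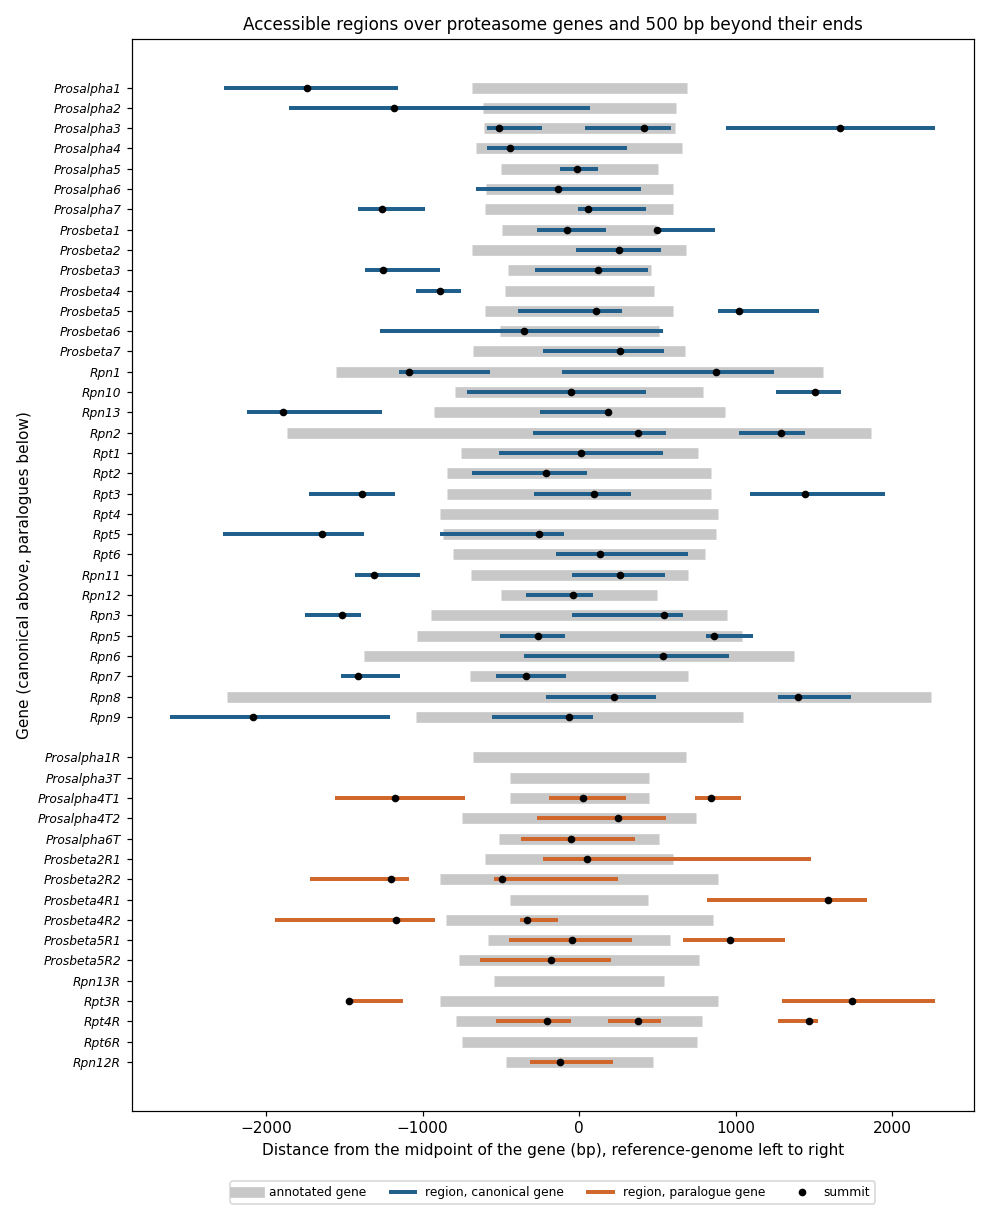
Accessible regions (coloured lines) and their summits (black dots) over each proteasome gene (grey bars), placed by distance from the midpoint of the gene (x axis, bp); canonical genes are above and paralogues below, and the strand was not used. Most genes carry a summit in their middle rather than at an end, and the regions beyond the grey bars mostly lie over neighbouring genes.

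A summit lay inside 38 of the 48 genes (79.2%), against 69.4% of genes in the members' length range. Of the highest-fold regions of the windows, 67.4% had their summit inside the gene, against 68.3% among all protein-coding genes. Summits inside the members lay in the middle of the gene more often than the background, a difference that was not tested: in 26 of these 38 (68.4%) the strongest fell in the central part of the gene, from 33.3% to 66.7% of its length. The same held for 45.5% of genes with such a summit in the members' length range (881 to 4500 bp), and for 57.1% of those no longer than the longest paralogue. Within 200 bp of an end lay 2 of the 38 (5.3%), those of Prosbeta6 (158 bp) and Prosalpha3 (198 bp), against 7.0% in the members' length range. Taking the highest-fold region of the whole window, 1 of 43 members had its summit within 200 bp of an end, against 23 of 82 cytoplasmic ribosomal protein genes (28.0%). Among all protein-coding genes with a region it was 12.7%. The regions in the members' windows numbered 69. They were wider than the list as a whole, with a median of 646 bp against 497 bp, although a wide region is more likely to reach a window. They covered a median of 43.4% of the canonical gene and 48.4% of the paralogue. In the members' length range the median gene was covered over 29.1%.

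Canonical genes lay closer to other genes than the paralogues did. All 32 had another protein-coding gene within 500 bp, against 80.3% of all protein-coding genes and 83.6% of those in the members' length range. Of the 16 paralogues 10 (62.5%) had such a neighbour and 6 had none. These 6 were Prosalpha3T, Prosalpha4T2, Prosalpha6T, Prosbeta2R1, Prosbeta5R1 and Prosbeta5R2. Of the 6, 5 had a region, all but Prosalpha3T, against 60.6% of genes in the paralogues' length range with no such neighbour. Of the 10 paralogues with a neighbour 7 had one, against 76.3%. In the canonical genes' windows each of the 17 regions with a summit outside the gene overlapped another gene. In the paralogues' windows 8 of 9 did, with the region shared by Prosbeta4R1 and Prosbeta4R2 counted at each. In both classes a region with its summit outside the gene need not belong to the member. When regions that touch another gene's window were left out, 12 of 32 canonical genes and 7 of 16 paralogues had a region, against 45.3% of all protein-coding genes. All canonical genes have a close neighbour, so this rule removes more at them than at genes in general. Among genes of their length range with another gene within 500 bp the share was 32.5%. Of the 10 paralogues with a neighbour 2 had such a region, against 14.6% in their length range.

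In the window of 500 bp, the paralogues named for Prosbeta2 and Prosbeta5 had the highest folds of the 16. By summits inside the gene this held for 3 of these 4, while Prosbeta2R2 had 1.80, below Prosalpha6T (2.63) and others. Prosbeta5R2 (2L 17990418 to 17991951) had 1 region, at 2L 17990548 to 17991388, with a fold of 4.15 (3.58 to 4.78) and its summit 586 bp inside the gene. Only 4.3% of all regions had a higher fold, and no other protein-coding gene lay within 500 bp. Prosbeta5R1 (2R 23308654 to 23309816) had 2.87 (2.47 to 3.32) at a summit 533 bp inside and 2.08 at a region 81 bp past the gene. Prosbeta5, after which both are named, had 2.06 (1.72 to 2.46), so its interval lies below those of both. Their pileups, 187 at Prosbeta5R2 and 180 at Prosbeta5R1, were higher than the 123 of Prosbeta5. The backgrounds were 44.4 at Prosbeta5R2, the lowest value of the list, 62.0 at Prosbeta5R1 and 59.1 at Prosbeta5.

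The paralogues of Prosbeta2 differed from it in different terms of the fold. Prosbeta2R1 (X 5808954 to 5810158) had a fold of 2.85 (2.39 to 3.37) against 1.86 (1.56 to 2.2) for Prosbeta2. Both summits had a pileup of 133, and the backgrounds were 46.1 and 71.0. Its region, 1714 bp wide, ran past the upper end of the gene. Prosbeta2R2 (3R 5217751 to 5219528) had 3.23 (2.82 to 3.69) at a region over cno, 201 bp from the gene, with a pileup of 218 over 66.7, and 1.80 (1.5 to 2.14) at the summit inside it. On the inside value its interval overlaps that of Prosbeta2.

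**Figure D4:**
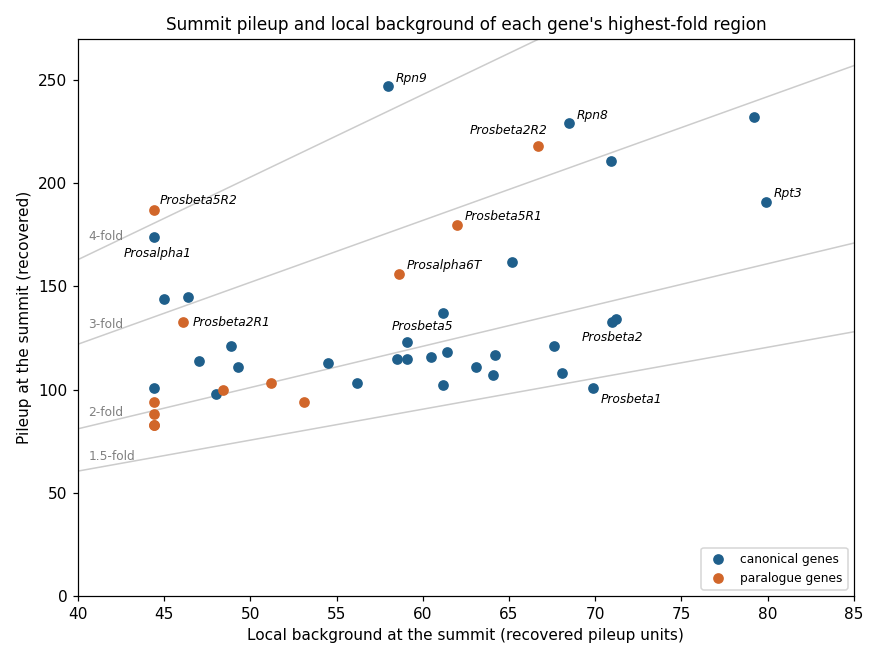
Summit pileup (y axis) against local background (x axis), both recovered from the authors' fold and p-value, for the highest-fold region of each gene; grey lines mark equal fold. Prosbeta2 and Prosbeta2R1 lie at the same pileup of 133 with different backgrounds, while Prosbeta5R2 and Prosbeta5R1 lie above Prosbeta5.

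The remaining paralogues had no region or values whose intervals overlap those of their namesakes, except Rpt4R, whose namesake had no region. Prosalpha6T (2L 13232039 to 13233058), which is required in the male germ line, had a summit 454 bp inside the gene with a fold of 2.63 (2.24 to 3.08). Prosalpha6 had 3.15 (2.66 to 3.71), and the intervals overlap. Prosalpha4T2 had 2.09 (1.70 to 2.56) and Prosalpha4T1 1.99 (1.63 to 2.41), close to the 2.05 of Prosalpha4. Prosalpha4T1 lies inside the annotated span of CG42322 and its own summit had 1.83. Rpn12R, which lies inside the span of Sytbeta, had 1.96 (1.58 to 2.41) against 1.78 (1.48 to 2.12) for Rpn12.

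Prosbeta4R1 and Prosbeta4R2 are neighbours on 2L and share the region at 2654302 to 2655327, which lies over the odorant receptor gene Or23a between them. Its fold of 1.85 (1.48 to 2.29) is therefore 1 measurement, not a pair. Prosbeta4R2 had a further region of 1.65 inside the gene, and Prosbeta4R1 had none over its body. Rpt3R had no region over its body either, and its 1.76 (1.42 to 2.15) and 1.5 belonged to regions over Alg12 and Tti1. Rpt3 had a higher value, 2.37 (2.05 to 2.73), also at a region outside the gene, and the intervals overlap. Rpt4R (3L 11941912 to 11943485) had summits of 2.05 (1.67 to 2.48) and 2.02 inside the gene, where its namesake Rpt4 had no region. With Prosbeta4R1 and Prosbeta4R2 counted once, 10 pairs had a value for both genes. Intervals were apart in 4, all with the paralogue higher and all among the paralogues of Prosbeta2 and Prosbeta5, and overlapped in 6. Paralogues of the same subunit are set against the same namesake value, so the 4 pairs are not independent. By summits inside the gene, 8 pairs had both values and 3 were apart, since Prosbeta2R2 (1.80) then overlapped Prosbeta2 (1.86). The intervals hold counting error of the pileup only, at a fixed background. Prosbeta2R1 and Prosbeta2 had the same pileup of 133, so their separation rests on the backgrounds of 46.1 and 71.0 alone.

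No region was listed for Prosalpha1R, Prosalpha3T, Rpn13R and Rpt6R. The nearest region lay 753 bp from Rpt6R over CG9717 (fold 1.66), 1108 bp from Prosalpha1R over CG12822 and Atg10 (2.76), and 3374 bp from Prosalpha3T over CG15554 (1.83). Rpn13R lies deep within the span of rg, and its nearest region, of fold 7.41, was 28037 bp away. Prosalpha1 and Prosalpha1R are known as near-identical tandem copies. They lie 1734 bp apart, each overlapping a neighbour, phr or CG18853, by 17 bp, and neither had a region over its body. Whether reads could be placed in either was not tested, so both values are uncertain. Without this pair, 30 of 31 canonical genes and 12 of 15 paralogues had a region.

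By chromosome, the members without a region were spread over 2R, 3R and X. On X, 4 of 6 members had one, and on 2L and 3L all 8 and all 7. Among all protein-coding genes the shares were 70.1% on X, 76.8% on 2L and 82.2% on 3L.

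Genes of the wider ubiquitin and proteasome pathway included some with strong regions. Of 24 such genes 22 (91.7%) had a region, against the 78.5% of all protein-coding genes, and 7 (29.2%) a strong one, against 15.3%. Uba1, the ubiquitin-activating enzyme, had a fold of 6.61 (6.14 to 7.10) with a pileup of 747, and Ubi-p5E, a polyubiquitin gene, had 4.96 (4.42 to 5.56). The shuttle factor gene Ubqn had 5.92 and Ntan1 had 7.53. The cap-n-collar gene cnc, whose product activates proteasome genes in flies, had 13 regions over 41132 bp with a highest fold of 5.18 (4.62 to 5.78). These genes span 482 to 41132 bp, and the longer ones offer a wider target. Whether their regions lay inside the gene or over a neighbour was not examined. The chaperone gene Pomp, which serves core assembly, had 2.50 (2.08 to 2.97), and the subunit gene Sem1 had 1.63. REG, an activator of the core, and Rad23, a shuttle factor on chromosome 4, had none.

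Cell type markers were read against the same 78.5% of all protein-coding genes with a region. All 9 wing and haltere disc markers had one, with a median highest fold of 7.62 (2.45 at vg to 10.5 at hth). Of 13 testis markers 9 had a region, with a median of 2.01 (1.59 at comr to 7.33 at mia), and can, nht, dj and Mst87F had none. A strong region was found at 2 of the 13, mia and Mst98Ca (3.04), against 15.3% of all protein-coding genes. All 6 hemocyte markers had one (median 2.90), so the counts do not tell disc from hemocyte. The disc markers are 8419 to 132008 bp long and the testis markers 728 to 3203 bp. Their counts and highest folds are therefore taken over unequal targets. The share of testis markers with a region, 69.2%, lies between 2 shares for short genes. These were 62.2% for genes no longer than the longest paralogue and 73.5% within the paralogues' length range. Neither range holds all testis markers, and no share was taken for the length range of the disc markers. The counts thus do not tell disc from testis either. Accessibility does not measure transcription, so expression of the paralogues in these cells was not assessed.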

How the data were processed

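ATAC-seq was made from 2 D17 libraries with a commercial kit, per the labels' protocols. Per the submitters' processing notes, the tools were MACS2 2.2.6, bedtools 2.29.2, Bowtie2 2.3.5.1, Trim Galore 0.6.4 and SAMtools 1.13, and the build is named as dm6 or BDGP6; no roles are stated. Peak settings, pooling of libraries and any shift of reads are not given in the sources used here. Region names hold the letters HD, which no label explains; D17 was assumed, as no other cells are in the series.

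The deposited list has 10 columns in narrowPeak layout. The deposited fold is a ratio of summit pileup to local background, the deposited −log10 p-value and the deposited −log10 q-value are those of the summit, and the deposited score equals 10 times −log10 q, rounded down, in 99.95% of regions. The lowest −log10 q was 1.34. Read depth is unknown. Pileup and background were recovered by solving the fold, with 1 added to each term, together with the Poisson tail for p. In the deposited list the largest relative error of the recovered p was 2.11e-05. The step was also checked on simulated data, over a range of folds narrower than that of the list (1.29 to 40.77). Intervals are exact Poisson 95% at a fixed background, for counting error only.

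Genes came from the RefSeq table of Release 6, the coordinates of dm6. Suffixes T1 and T2 were counted as paralogues. Members, lists and tests were chosen with earlier results of these data known. Full values were planned for every paralogue and its namesake, canonical genes without a region and the 5 highest and 5 lowest canonical folds; other genes were named as neighbours, pathway members or markers. The name Fbxo7 matched ntc, leaving 24 pathway genes. Planned work on gene starts, promoter motifs and protein identity was not run, because strand and sequence were not used here. Scripts ran in Python 3.11.15 with SciPy 1.17.1, pandas 2.3.3 and numpy 2.4.6.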

Additional observations from a re-analysis of the deposited data

How the results depend on the processing

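Other settings were windows of 0, 200 and 1000 bp, an overlap of 100 bp, the summit in the window and the summit in the gene. Further ones were gene ends alone, the 50% of regions with the higher score and the narrower suffix rule. Each left the counts of canonical genes (24 to 33) and paralogues (8 to 13) with a region within 1.5 times the first. The narrower suffix rule moves Prosalpha4T1 and Prosalpha4T2 to the canonical group. It gave 33 of 34 canonical genes and 10 of 14 paralogues (71.4%). The summit in the gene, gene ends alone and the counts without Prosalpha1 and Prosalpha1R were chosen after seeing the data. Among all protein-coding genes 8043 to 11681 had a region under these settings. With the 10% of regions of highest fold the counts fell to 5 canonical genes, 2 paralogues and 2135 protein-coding genes, as fewer regions are counted. With regions that touch no other gene's window they fell to 12 and 7, and the median highest fold of the paralogues was 2.63 where it had been 2.07; that of the canonical genes was 1.76 where it had been 2.05. Further backgrounds were 73.5% at 200 bp and for the summit in the window, 83.8% at 1000 bp, 76.9% for an overlap of 100 bp, 57.7% for the higher-scoring 50% and 68.6% for gene ends. No paired analysis was possible because there is 1 group and 1 list with no replicate named, and for the same reason no library could be left out.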
